A study of Mus musculus with 6 samples.

Results

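The receptors of the interleukin-1 and interleukin-18 families and the IL-1 receptor antagonist were followed across mouse naive CD4+ T cells (Naive), T helper 17 cells (Th17) and T helper 1 cells (Th1). The 7 genes were taken by symbol from the per-library count files: *Il1r1*, *Il1r2*, *Il1rap*, *Il1rl1*, *Il18r1*, *Il18rap* and *Il1rn*. All 7 were found among the 24223 genes of the files, and all 7 were among the 13607 genes that had enough counts to be tested. RNA-Seq was made from 2 libraries of each cell type. Naive cells came, per the study's methods, from the pooled lymph nodes and spleens of C57BL/6 mice aged 1 to 2 months, were selected as CD4+ and CD44-, and were not activated. Both helper types were grown from such cells with antibodies to CD3 and CD28 and were collected on the fifth day. The Th17 medium held TGF-β, IL-6, IL-23 and IL-1β with antibodies that block IL-4 and IFN-γ, and the Th1 medium held IL-12, IL-2 and an antibody that blocks IL-4. Th17 cells were thus grown in the presence of the ligand of the receptor encoded by *Il1r1*, and activation, days in culture and added cytokines cannot be told apart in a comparison with Naive. No genotype other than C57BL/6 was involved.

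IL-1 signals through IL1R1, the receptor chain that binds IL-1α and IL-1β and carries the signalling domain, together with the accessory chain IL1RAP. IL1R2 binds the same ligands but lacks that domain and acts as a decoy, and the *Il1rn* product occupies IL1R1 without signalling. IL-33 signals through the *Il1rl1* product ST2 with the same accessory chain, and IL-18 through its own chains, encoded by *Il18r1* and *Il18rap*. In T cells, IL-1 is known for promoting Th17 development, IL-18 for raising IFN-γ output by Th1 cells together with IL-12, and ST2 for marking Th2 cells and tissue regulatory T cells. *Il1rl1*, *Il1r2*, *Il1rap* and *Il1rn* each give rise to soluble or alternative forms, and a count per gene does not separate these from the full-length form.

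Total counts were 17742158 to 18608805 in the replicate 2 libraries and 59973041 to 69080017 in the replicate 1 libraries, so replicate number and depth went together. Levels are given as CPM, the count divided by the TMM-scaled library size and brought to a common total, and a level of 3 counts corresponded to 0.0440 to 0.190 CPM. The listed CD4 T cell genes found in the files (7 of 8, among them *Cd3d* and *Cd3e*) were each above 10 CPM in every library. The summed Th17 marker list was 2146 and 2616 CPM in Th17 against 32.2 to 71.7 CPM in the other libraries, and the summed Th1 list was 1294 and 1554 CPM in Th1 against 245 to 282 CPM elsewhere. Genes that mark other cells were also present. The neutrophil list (11 of 12 genes in the files) summed to 2953 and 2826 CPM in Th17, with 316 and 192 CPM in the Naive libraries and 64.1 and 74.5 CPM in Th1. The macrophage and dendritic cell list (11 of 12) summed to 318 and 988 CPM in Th17, 57.7 and 28.8 CPM in the Naive libraries and 13.7 and 14.6 CPM in Th1. In each comparison a gene was called changed at a Benjamini-Hochberg adjusted p under 0.01 with a log2 fold change beyond 1 in either direction, from edgeR's quasi-likelihood test across all tested genes.

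The receptor genes divided into separate patterns (the plot of levels by library). The summed level of the 6 receptor genes was 102 and 94.7 CPM in Naive, 427 and 408 CPM in Th17 and 1210 and 1338 CPM in Th1, where *Il18r1* made up 64.9% and *Il18rap* 26.1% of the CPM of all 7 genes on average. That sum was not tested. The IL-1 binding receptors were highest in Th17, the IL-18 receptor chains and *Il1rl1* were highest in Th1, and the accessory chain *Il1rap* was highest in Naive. Of the 7 genes, 5 rose and 0 fell from Naive to Th17, where 5.43% of all tested genes were called, 4.01% higher and 1.43% lower. From Naive to Th1, 3 rose and 0 fell, against 7.45% of all genes called, 4.64% higher and 2.81% lower. Between the helper types, 2 were higher in Th1 and 3 lower, against 5.53% of all genes called, 2.7% higher and 2.83% lower. The median log2 fold change of the 7 genes was 2.22, 2.57 and -0.09 in these comparisons, where the median of all tested genes was -0.02, -0.02 and -0.03. The first and second comparison share the Naive libraries, and the third is built from the same Th libraries.

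**Figure D1:**
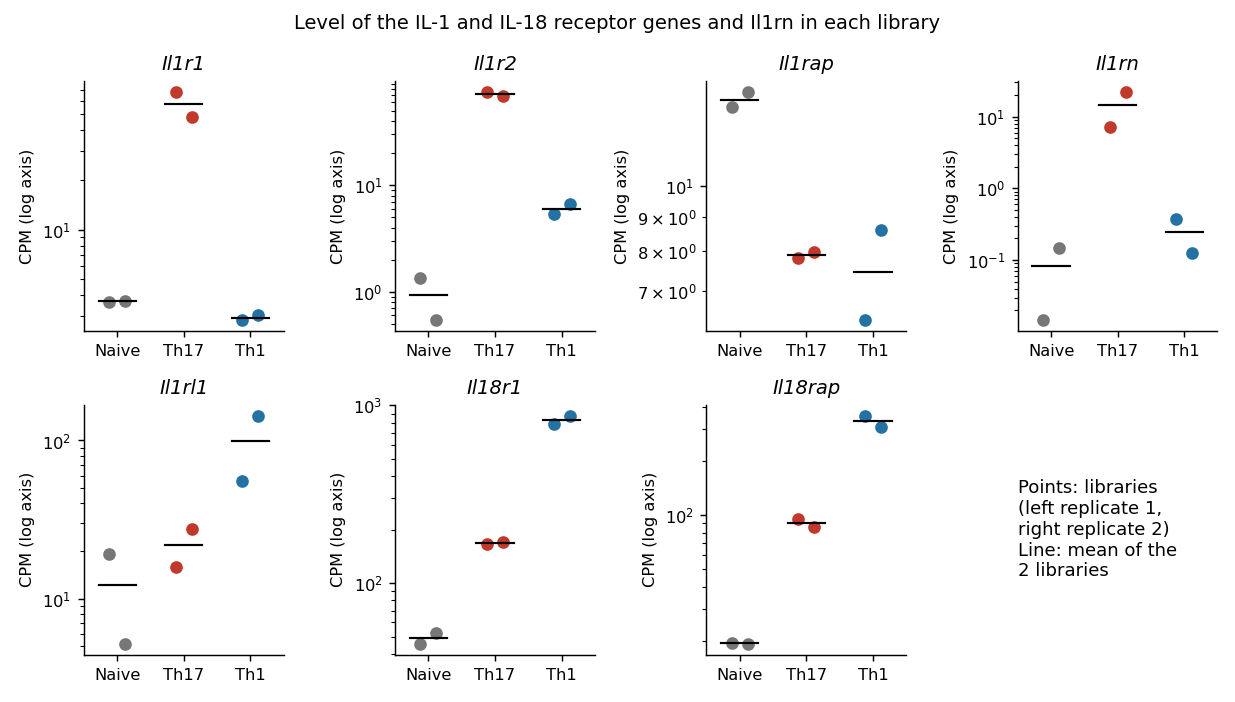
Level of each gene in every library, in CPM on a log axis whose range differs between panels, with the mean of the 2 libraries of a cell type as a line. *Il1r1* and *Il1r2* sit at 48.2 to 74.5 CPM in Th17 and below 7 CPM elsewhere, *Il18r1* and *Il18rap* climb from Naive over Th17 to Th1, and the 2 Th1 points of *Il1rl1* lie at 55.7 and 142.6 CPM.

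*Il1r1*, the signalling receptor for IL-1, spans chr1:40225080-40317257 (GRCm38, plus strand). Its level was 3.67 and 3.71 CPM in Naive, 67.9 and 48.2 CPM in Th17, and 2.85 and 3.03 CPM in Th1. The Th17 libraries stood far above the other 4, and the Naive and Th1 libraries did not overlap but lay close together. *Il1r1* rose 15.7-fold in Th17 compared with Naive (log2 fold change 3.98 ± 0.34 SE, edgeR adjusted p = 0.000123) and was lower in Th1 than in Th17 by 4.31 on the log2 scale (SE 0.35, adjusted p = 0.000139). Between Th1 and Naive the log2 fold change was -0.33 (95% confidence interval -1.04 to 0.38, edgeR adjusted p = 0.542). These are bulk libraries, in which fewer cells of a type and less RNA per cell cannot be told apart. The 250 bases before its RefSeq start, none of them in an annotated exon, are shown because this gene had one of the sharpest differences between the helper types. They are read from the RefSeq promoter table for GRCm38.p6 at chr1:40224830-40225079, plus strand, and hold no match to any of the motifs searched, so no base is in capitals.
Il1r1 upstream: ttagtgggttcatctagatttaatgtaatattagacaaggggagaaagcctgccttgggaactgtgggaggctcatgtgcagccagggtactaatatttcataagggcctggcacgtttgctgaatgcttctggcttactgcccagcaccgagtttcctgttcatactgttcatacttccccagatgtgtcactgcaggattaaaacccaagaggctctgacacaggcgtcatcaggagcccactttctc

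The motifs searched on both strands of the 250-base windows were a STAT motif (TTCNNNGAA), an AP-1 motif (TGANTCA), a T-box motif (GGTGTGA), a ROR half-site (AGGTCA), a kappa B motif, a Runx motif (TGTGGT) and a TATA box (TATAAA). Among all 32851 RefSeq windows of this length, the STAT motif was found in 7.02%, the AP-1 motif in 6.75%, the T-box motif in 3.33%, the ROR half-site in 14%, the kappa B motif in 0.356%, the Runx motif in 14% and the TATA box in 12.4%. All 7 genes had a window, and 13 windows were searched because several genes have more than 1 RefSeq start. The matches described here do not overlap one another, and a match is a run of letters, with no measurement of binding.

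*Il1r2*, the decoy receptor, showed the largest rise among the receptors. Its level was 1.34 and 0.545 CPM in Naive, 74.5 and 68.8 CPM in Th17 and 5.34 and 6.70 CPM in Th1. The 3 cell types did not overlap, with Th17 above Th1 and Th1 above Naive. The log2 fold change was 6.15 ± 0.46 (SE, edgeR adjusted p = 5.92e-05) in Th17 compared with Naive and 2.57 ± 0.41 (adjusted p = 0.0027) in Th1 compared with Naive. Without Naive replicate 1 they were 7.03 and 3.45, and without Naive replicate 2 they were 5.74 and 2.16, all called. The difference between Th1 and Naive missed the threshold when the 4 Naive and Th1 libraries were fitted alone (edgeR adjusted p = 0.0168) or when testing against a fold change of 2 (0.0123). *Il1r2* was lower in Th1 than in Th17 by 3.58 on the log2 scale (SE 0.40, edgeR adjusted p = 0.000611). The gene spans chr1:40074079-40125231 (GRCm38, plus strand) in GENCODE, and an antisense gene, *Gm16894*, overlaps it. *Gm16894* had 1 to 9 counts in Naive and Th1 and 49 and 9 counts in Th17, against 4872 and 1217 counts of *Il1r2* in the same Th17 libraries. The stretch before the downstream RefSeq start is shown because it holds a STAT motif match, given in capitals. It lies at chr1:40085852-40085990 (GRCm38.p6, plus strand), outside annotated exons except for its last 6 bases, and the match ends 103 bases before that start.
Il1r2 upstream: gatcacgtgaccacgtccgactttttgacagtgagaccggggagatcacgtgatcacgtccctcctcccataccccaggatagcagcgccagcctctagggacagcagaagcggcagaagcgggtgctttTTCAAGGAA

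The balance between signalling and decoy receptor was compared per kilobase of merged exon length, since the genes differ in length. That length exceeds the longest annotated transcript by amounts that differ between genes, so ratios between genes depend on this choice. *Il1r2* made up 54.8% and 32.9% of the summed *Il1r1* and *Il1r2* level per kilobase in the Naive libraries, then 78.6% and 82.6% in Th17, and 86.2% and 88.0% for Th1. The Naive libraries lay below all 4 helper libraries, and the Th1 libraries lay slightly above the Th17 libraries. In Th17, *Il1r1* was at 10.7 and 7.58 CPM per kilobase and *Il1r2* at 39.1 and 36.1 CPM per kilobase. In Th1 these levels were 0.447 and 0.477 for *Il1r1* and 2.80 and 3.51 for *Il1r2*. The rise of both IL-1 binding receptors in Th17 occurred in the libraries with the highest neutrophil list, a cell type known to carry IL1R2. Of the defining neutrophil markers, *S100a8* was at 1149 and 1142 CPM and *S100a9* at 1039 and 1060 CPM in Th17, and in Th17 10 and 9 of the 11 listed genes exceeded 10 CPM. Other genes of the list were ordered differently, with *Mpo* at 251 and 159 CPM in the Naive libraries but 68.1 and 58.7 CPM in Th17 (called lower, edgeR adjusted p = 0.00473), *Elane* at 57.3 and 29.6 CPM against 52.5 and 46.9 CPM, and *Cxcr2* highest in Th1, at 36.2 and 34.9 CPM. The part of these cells or transcripts in the result was not tested.

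*Il1rap*, the accessory chain shared by the IL-1 and IL-33 receptors, was the only one of the 7 genes with a mean below Naive in both helper types, and both Naive libraries lay above all 4 helper libraries. Its level was 13.1 and 13.7 CPM in Naive, 7.83 and 7.98 CPM in Th17 and 6.34 and 8.60 CPM in Th1. The log2 fold change was -0.76 (95% confidence interval -1.53 to 0.01, edgeR adjusted p = 0.155) in Th17 and -0.85 (-1.62 to -0.07, adjusted p = 0.132) in Th1, neither of which was called. The helper types overlapped, with a log2 fold change of -0.09 between them (95% confidence interval -0.86 to 0.69, edgeR adjusted p = 0.877). Per kilobase, the ratio of *Il1r1* to *Il1rap* was 0.502 and 0.483 in the Naive libraries, stood at 15.5 and 10.8 in Th17, and was 0.801 and 0.630 for Th1. The signalling chain was thus below its partner in Naive and Th1 and above it in Th17. *Il1rap* lies on chr16:26581704-26730117 (GRCm38, plus strand), away from the other receptor genes. Its upstream window was 74.4% G and C with 30 CpG dinucleotides, higher than 95.8% of all windows in G and C content, whereas the first *Il1rl1* window was 37.6% G and C with 0 CpG. Neither window held a match to the motifs searched. The second *Il1rl1* window held a ROR half-site at 185 to 180 and a Runx match at 6 to 1 bases before its start.

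*Il1rn*, the secreted or intracellular antagonist of IL1R1, was detected mainly in Th17. It had 1 and 3 counts in Naive, 476 and 385 counts in Th17 and 24 and 2 counts in Th1. These correspond to 0.0147 and 0.149 CPM, 7.28 and 21.8 CPM, and 0.371 and 0.126 CPM. The Th17 libraries were above all others, while Naive and Th1 overlapped near the level of 3 counts. The pooled level in Th17 was 229 times that in Naive (95% counting interval 89.1 to 842) and 32.1 times that in Th1 (21.8 to 49.4), intervals that cover counting error only. Leaving out 1 library moved the fitted log2 difference of Th17 from Naive between 6.57, without Naive replicate 1, and 9.70, without Naive replicate 2. Both differences were called (edgeR adjusted p = 0.000928 and 0.00246), and Th1 compared with Naive was not (adjusted p = 0.167). The difference between the helper types was not called without Th17 replicate 2 (adjusted p = 0.0227) or Th1 replicate 2 (0.0117). The Th17 libraries differed 2.99-fold, with replicate 2 higher, and the macrophage and dendritic cell list was also higher in replicate 2, at 988 against 318 CPM. Among the defining markers of that list, *Lyz2* was at 222 and 762 CPM and *Csf1r* at 5.34 and 11.7 CPM in Th17. In Th1, *Lyz2* was at 6.31 and 10.6 CPM and *Csf1r* at 0.418 and 0.442 CPM. The Naive libraries, with almost no *Il1rn*, held both markers. *Lyz2* reached 25.8 and 8.91 CPM there, below its Th17 levels, whereas *Csf1r*, at 7.41 and 4.80 CPM, overlapped Th17. *Flt3*, also listed, fell from 6.65 and 2.48 CPM to 1.24 and 1.47 CPM between Naive and Th17 without a call, although the list sum was higher in Th17. The part of such cells in the *Il1rn* level was not tested.

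The upstream stretch of *Il1rn*, which spans chr2:24336853-24351494, is shown because it is the only member window with an AP-1 match. It lies at chr2:24336610-24336852 (GRCm38.p6, plus strand), outside annotated exons. Capitals mark, in order, a ROR half-site on the minus strand, whose first base is 189 bases before the RefSeq start, and the AP-1 match, whose first base is 141 bases before it.
Il1rn upstream: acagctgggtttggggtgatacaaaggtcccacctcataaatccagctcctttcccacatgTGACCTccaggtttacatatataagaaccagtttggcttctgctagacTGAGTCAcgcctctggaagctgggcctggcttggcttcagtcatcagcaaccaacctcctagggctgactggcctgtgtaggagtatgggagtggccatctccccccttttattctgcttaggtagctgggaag

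**Figure D2:**
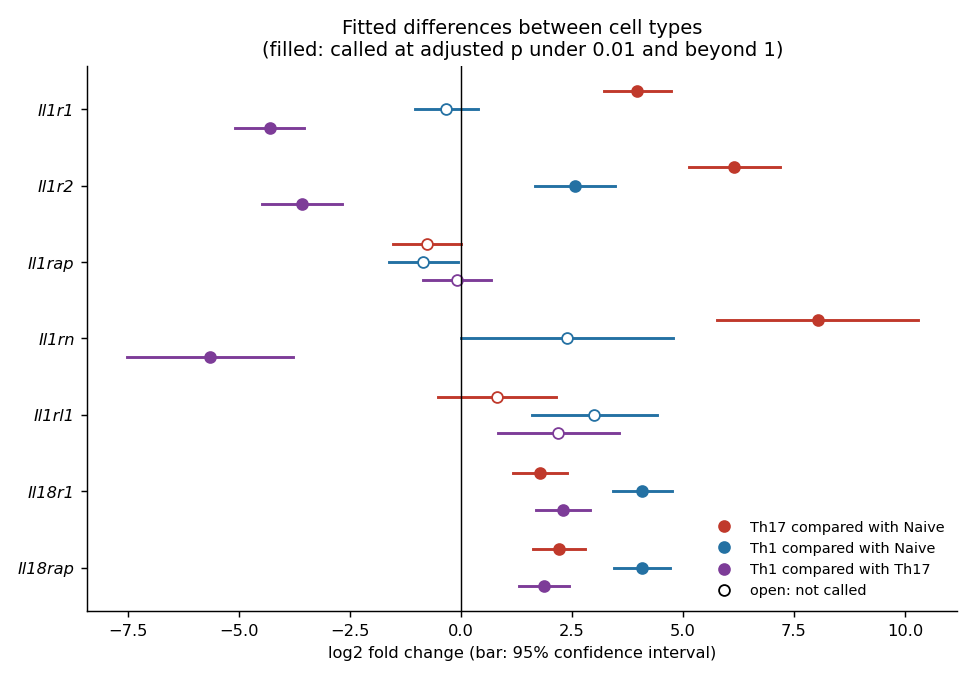
Fitted log2 fold change of each gene in the 3 comparisons, with its 95% confidence interval. Filled points passed the call (edgeR adjusted p under 0.01 and beyond 1), open points did not. The intervals of *Il1r1*, *Il1r2* and *Il1rn* lie on opposite sides of 0 in Th17 compared with Naive and in Th1 compared with Th17, and those of *Il18r1* and *Il18rap* lie above 0 in all 3.

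*Il18r1*, the chain that binds IL-18, and *Il18rap*, its signalling partner, rose together. *Il18r1* was at 45.7 and 52.1 CPM in Naive, 166 and 170 CPM in Th17 and 785 and 870 CPM in Th1. *Il18rap* was at 19.5 and 19.4 CPM in Naive, 95.1 and 85.7 CPM in Th17 and 355 and 307 CPM in Th1. For both genes the cell types did not overlap and kept the order Naive, Th17, Th1. From Naive, *Il18r1* rose 3.44-fold in Th17 (log2 fold change 1.78 ± 0.27 SE, edgeR adjusted p = 0.00256) and 16.9-fold in Th1 (4.08 ± 0.30, adjusted p = 4.69e-05). *Il18rap* rose 4.65-fold in Th17 (2.22 ± 0.26, edgeR adjusted p = 0.000686) and 17.0-fold in Th1 (4.09 ± 0.28, adjusted p = 3.42e-05). Between the helper types, Th1 was higher by 2.30 ± 0.28 for *Il18r1* (edgeR adjusted p = 0.000821) and by 1.87 ± 0.26 for *Il18rap* (adjusted p = 0.0016). Without either of the Th17 libraries these last differences kept their size, 2.28 and 2.32 for *Il18r1* and 1.95 and 1.80 for *Il18rap*, and missed the threshold (edgeR adjusted p = 0.0117 to 0.0273). The rise of *Il18r1* in Th17 also missed it without Naive replicate 1 (adjusted p = 0.0162), Th17 replicate 1 (0.0153) or Th17 replicate 2 (0.0195). When tested against a fold change of 2, neither that rise (0.033) nor the difference of *Il18rap* between the helper types (0.0186) was called.

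The levels of both IL-18 receptor chains kept a similar ratio while they rose. Per kilobase, *Il18r1* was 3.28 and 3.77 times *Il18rap* in Naive, 2.45 and 2.78 times in Th17 and 3.10 and 3.97 times in Th1. The Th17 libraries were lowest, and Naive and Th1 overlapped. With 172 ± 12.5 CPM per kilobase (SD, n = 2), *Il18r1* was above 97.8% of the tested genes in Th1, against 66.1% in Naive. Its share of the summed CPM of the 7 genes was 64.9% and 65.0% in Th1, 38.2% and 39.5% in Th17 and 44.6% and 55.0% in Naive. Relative to the signalling IL-1 receptor, *Il18r1* was 16.5 and 18.6 times *Il1r1* per kilobase in Naive, 3.23 and 4.66 times in Th17 and 365 and 379 times in Th1. Natural killer and CD8 T cells also carry both chains. The NK and CD8 T cell list summed to 203 and 335 CPM in Th1 against 64.6 to 112 CPM elsewhere. *Gzma* led that sum in Th1, at 136 and 297 CPM, against 4.89 and 1.88 CPM in Naive. Of its defining markers, *Ncr1* had 1 and 0 counts and *Klrb1c* 11 and 2 counts in Th1, *Klrd1* was at 28.9 and 9.54 CPM, and *Cd8a* had 40 and 4 counts. In Naive, *Ncr1* had 51 and 4 counts and *Klrb1c* 1187 and 227 counts, *Klrd1* was at 10.5 and 10.9 CPM, and *Cd8a* had 15 and 3 counts. The part of such cells was not tested.

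The 4 receptor genes *Il1r1*, *Il1rl1*, *Il18r1* and *Il18rap* follow *Il1r2* on the plus strand of chromosome 1 within 477627 bases, with *Il1rl2* between *Il1r1* and *Il1rl1*. *Il1rl1* ends 136 bases before *Il18r1* begins, and 14507 bases separate *Il18r1* (chr1:40465552-40500854) from *Il18rap* (chr1:40515362-40551705). The intergenic stretch between *Il1rl1* and *Il18r1* is shown because it parts *Il1rl1*, whose replicates differed widely, from the most highly expressed member. It lies at chr1:40465416-40465551 (GRCm38.p6, plus strand), and its last base precedes the start of *Il18r1*. The second stretch lies inside *Il18r1*, before its most downstream RefSeq start, at chr1:40465787-40465969, with its first 24 bases in an annotated exon. It is shown because that window is the only one of a member with 2 STAT matches, given in capitals, at 219 to 211 and 152 to 144 bases before that start. The third, before *Il18rap* at chr1:40515112-40515361, held no match.
Il1rl1 to Il18r1: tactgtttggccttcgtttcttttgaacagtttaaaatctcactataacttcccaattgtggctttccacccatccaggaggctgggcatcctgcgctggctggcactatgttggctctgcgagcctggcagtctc
Il18r1 internal: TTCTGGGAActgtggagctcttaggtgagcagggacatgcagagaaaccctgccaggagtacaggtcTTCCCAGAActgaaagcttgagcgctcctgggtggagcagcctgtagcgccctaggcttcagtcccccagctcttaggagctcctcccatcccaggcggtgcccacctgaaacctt
Il18rap upstream: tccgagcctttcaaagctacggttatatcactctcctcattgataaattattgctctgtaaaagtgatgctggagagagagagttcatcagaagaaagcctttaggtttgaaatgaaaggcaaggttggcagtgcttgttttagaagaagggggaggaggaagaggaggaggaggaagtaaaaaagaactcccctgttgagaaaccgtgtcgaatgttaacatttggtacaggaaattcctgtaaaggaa

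*Il1rl1*, which encodes the IL-33 receptor ST2 and its soluble form, was highest in Th1 but varied within every cell type. It spans chr1:40429570-40465415 (GRCm38, plus strand). Its level was 19.2 and 5.20 CPM in Naive, 15.8 and 27.6 CPM in Th17 and 55.7 and 142.6 CPM in Th1. Naive and Th17 overlapped, and both Th1 libraries were above the other 4. The libraries of a cell type differed 3.69-fold in Naive, 1.74-fold in Th17 and 2.56-fold in Th1, whereas those of *Il18r1* differed at most 1.14-fold. Against Naive, the Th1 log2 fold change was 3.0 ± 0.63 (SE, 95% confidence interval 1.59 to 4.41), and the edgeR adjusted p of 0.0105 lay just outside the threshold. The difference passed under DESeq2 (adjusted p = 1.48e-05), and in edgeR without Naive replicate 1 (log2 fold change 4.25, adjusted p = 0.00323) or without Th1 replicate 1 (3.57, adjusted p = 0.0027). Against Th17 the value in Th1 was 2.19 ± 0.61 (edgeR adjusted p = 0.0384), not enough for a call, while DESeq2 called it (adjusted p = 0.00357), as did edgeR on the 4 Th17 and Th1 libraries alone (0.00791) or without either Naive library (0.00773 and 0.00815). Th17 differed from Naive by 0.81 (95% confidence interval -0.52 to 2.14, edgeR adjusted p = 0.364), and it ranged from 0.17 to 2.05 when 1 library was left out, highest without Naive replicate 1.

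Several cells other than Th1 cells carry ST2, so their marker lists were set beside *Il1rl1*. The mast cell and basophil list summed to 178 and 55.8 CPM in Naive, 242 and 485 CPM in Th17 and 90.3 and 71.2 CPM in Th1. In Naive and Th17 the library with more *Il1rl1* also had the higher list sum, and in Th1 it had the lower. Of its defining markers, *Cpa3* was at 18.6 and 3.92 CPM and *Ms4a2* at 1.83 and 0.758 CPM in Th1. In Naive, *Cpa3* was at 6.05 and 4.06 CPM and *Ms4a2* at 3.24 and 1.09 CPM, and *Kit*, at 99.8 and 29.6 CPM, led the list sum. The Th2 list summed to 69.5 and 94.7 CPM in Naive, 50.6 and 38.4 CPM in Th17 and 123 and 244 CPM in Th1. Its leading gene *Gata3*, the transcription factor of the Th2 program, was at 116 and 240 CPM in Th1 and 57.5 and 82.4 CPM in Naive. The other defining markers were higher in Th17 than in Th1. *Il4*, a Th2 cytokine, was at 0.742 and 0.506 CPM in Th1 and 4.21 and 4.24 CPM in Th17. *Il5* had 6 and 0 counts in Th1 and 34 and 16 counts in Th17. The group 2 innate lymphoid cell list summed to 2.63 and 2.97 CPM in Th1, below 19.6 to 26.4 CPM in the other libraries. The regulatory T cell list summed to 1574 and 1575 CPM in Th1, 846 and 726 CPM in Th17 and 283 and 420 CPM in Naive. *Il2ra* led that sum in Th1, at 1034 and 831 CPM, against 42.3 and 71.7 CPM in Naive. The other defining markers were lower in Th1 than in Naive. *Foxp3* itself was at 6.95 and 13.2 CPM in Th1 and 39.2 and 69.9 CPM in Naive, and *Ikzf2* at 10.9 and 6.51 CPM against 61.3 and 98.4 CPM. The part of mast cells, basophils, Th2 cells or regulatory T cells in the *Il1rl1* level was not tested.

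**Figure D3:**
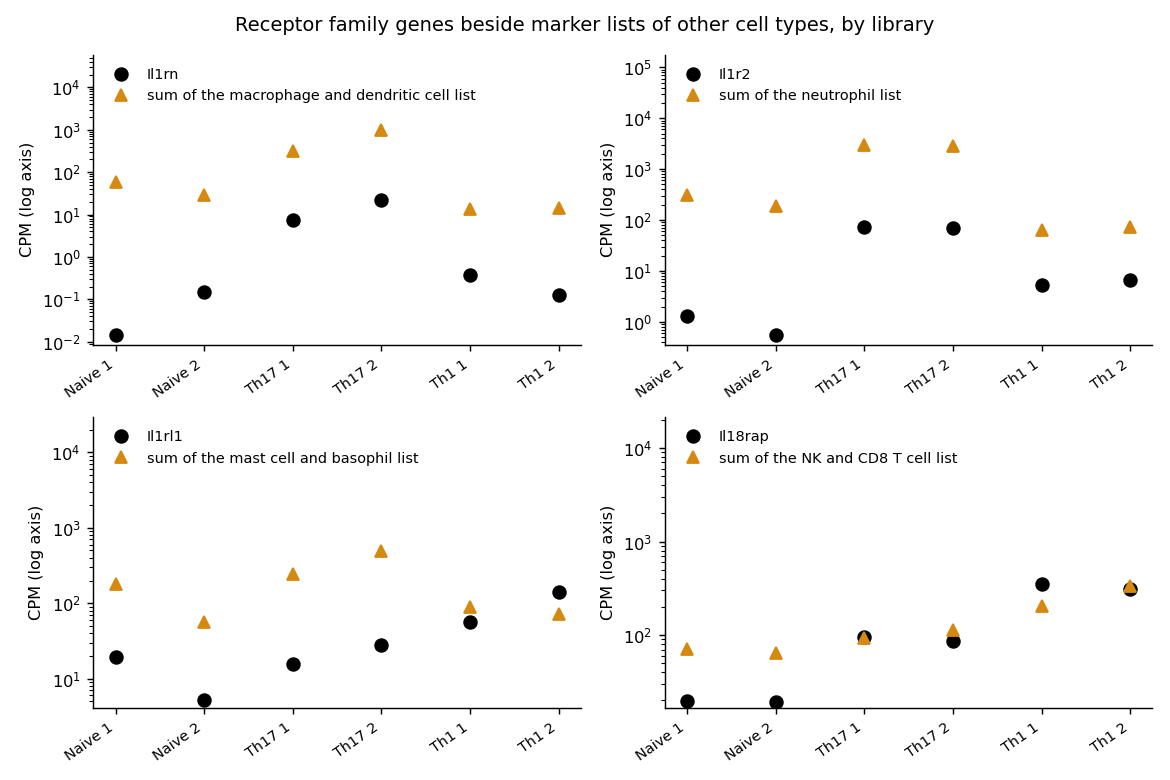
Level of 4 of the genes (circles) and summed level of a marker list of another cell type (triangles) in each library, in CPM on a log axis. The macrophage and dendritic cell list and *Il1rn* are both highest in Th17 replicate 2, and the neutrophil list and *Il1r2* are highest in both Th17 libraries. The mast cell list lies below *Il1rl1* in Th1 replicate 2 only. The NK and CD8 T cell list, led there by *Gzma*, and *Il18rap* are both highest in the Th1 libraries. From Th1 replicate 1 to replicate 2 the list goes up and *Il18rap* goes down.

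The order of the members by level per kilobase of merged exon length differed between the cell types. For *Il1rap* that length was 11360 bases against 4520 in its longest transcript, and for *Il1rn* 5535 against 2554. For *Il1r1* it was 6363 against 5819. The places of the members relative to each other therefore depend on this choice of length. In Naive the order was *Il18r1* (10.2 ± 0.947 CPM per kilobase, SD, n = 2), *Il18rap* (2.88 ± 0.00996), *Il1rl1* (1.77 ± 1.43), *Il1rap* (1.18 ± 0.0407), *Il1r1* (0.580 ± 0.00495), *Il1r2* (0.493 ± 0.293) and *Il1rn* (0.0147 ± 0.0171). The values of *Il1rl1* overlapped those of its lower neighbour *Il1rap*, and those of *Il1r2* overlapped those of *Il1r1*. In Th17 *Il1r2* (37.6 ± 2.11) and *Il18r1* (34.9 ± 0.613) led, followed by *Il18rap* (13.4 ± 0.985), *Il1r1* (9.13 ± 2.18), *Il1rl1* (3.15 ± 1.21), *Il1rn* (2.63 ± 1.85) and *Il1rap* (0.696 ± 0.00887), with *Il1rl1* and *Il1rn* overlapping. The decoy receptor thus stood among the highest members in Th17, although its 2 libraries and those of *Il18r1* differed by little more than their spread. In Th1 the order was *Il18r1* (172 ± 12.5), *Il18rap* (49.0 ± 4.95), *Il1rl1* (14.4 ± 8.91), *Il1r2* (3.15 ± 0.505), *Il1rap* (0.657 ± 0.140), *Il1r1* (0.462 ± 0.0209) and *Il1rn* (0.0450 ± 0.0313), and no neighbours in that order overlapped.

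By the likeness defined next, the gene whose pattern over the 6 libraries was most like that of *Il18r1* was *Il18rap*, and the reverse held too. Likeness was the root-mean-square difference of log2 CPM after centring each gene on its mean, where 0 is an identical pattern. An average of 2 counts was added before the logarithm, which sets the value of a library with 0 counts. Likeness was 0.24 for this gene couple. The next were *Fggy* (0.244) and *P4ha2* (0.248) for *Il18r1*, and *Scpep1* (0.244) and *Ly6a* (0.248) for *Il18rap*. *Il1rl1*, their neighbour, was at 0.827 from *Il18r1* and 0.904 from *Il18rap*, and its own nearest genes were *Mroh8* (0.395), *Rassf4* (0.407) and *Mab21l1* (0.474). *Il1r1* was nearest to *Cldn1* (0.14), *Pknox2* (0.152) and *Dpp10* (0.164), all rarely counted. In Th17 they had 64 and 12, 64 and 13, and 65 and 10 counts. In Naive and Th1 they had 0 counts, except for 1 count of *Dpp10* in Naive replicate 1. Their likeness to *Il1r1* thus rests on the added counts. *Il1r2* was nearest to *Il13* (0.389), *Ifitm6* (0.401) and *Sprn* (0.403), and lay at 1.36 from *Il1r1*. *Il13*, a Th2 cytokine, was at 23.1 and 20.7 CPM in Th17 and at most 1.08 CPM elsewhere. *Il1rap* was nearest to *Ankrd10* (0.0602), *Ehhadh* (0.0611) and *Ears2* (0.0853), and *Il1rn* to *Ppp1r14c* (0.479), *Hcar2* (0.581) and *Pilra* (0.601). Ranked by correlation instead, neither IL-18 receptor chain was among the 3 genes nearest to the other. *Insrr* (0.998) then led for *Il18r1* and *Lama5* (0.998) for *Il18rap*, against 0.990 between the 2 chains. These rankings are descriptions over 6 libraries in 3 cell types.

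The genes around the receptor cluster did not move with it as a block (the map of the cluster). Of the neighbours and interleaved genes on chromosome 1, 12 were in the files and 7 were tested. *Il1rl2*, the IL-36 receptor that lies between *Il1r1* and *Il1rl1*, was at 6.52 and 10.1 CPM in Naive, 6.12 and 3.51 CPM in Th17 and 6.67 and 6.0 CPM in Th1 and was not called in any comparison (edgeR adjusted p = 0.237 to 0.608). *Slc9a2*, a sodium-proton exchanger downstream of *Il18rap*, was at 0.499 and 0.248 CPM in Naive, 1.51 and 0.679 CPM in Th17 and 10.3 and 32.3 CPM in Th1. It rose in Th1 compared with Naive by 5.72 ± 0.73 on the log2 scale (edgeR adjusted p = 0.000849) and was higher in Th1 than in Th17 by 4.21 ± 0.66 (adjusted p = 0.00333). Like *Il1rl1*, it was higher in Th1 replicate 2 than in Th1 replicate 1. *Slc9a4*, which lies between *Il18rap* and *Slc9a2*, had 1 count in all 6 libraries together. On the other side, *Map4k4*, a kinase gene, was not called (edgeR adjusted p = 0.0679 to 0.521). *Rfx8* had 2 and 0 counts in Naive and 49 and 16 in Th17, a pooled ratio of 34.6 (95% counting interval 9.20 to 292, counting error only). Its fitted log2 fold change was 5.07 (95% confidence interval 2.88 to 7.26, edgeR adjusted p = 0.00872). That call was lost when any 1 of the 4 Naive and Th17 libraries was left out. *Rnf149*, a ubiquitin ligase gene, was at 35.8 and 39.0 CPM in Naive, 78.8 and 93.1 CPM in Th17 and 29.7 and 37.2 CPM in Th1, lower in Th1 than in Th17 by 1.36 (SE 0.27, adjusted p = 0.00906). Neither that call nor the one of *Slc9a2* between the helper types held without Th17 replicate 1, Th17 replicate 2 or Th1 replicate 2, and the call of *Rnf149* was also lost without Th1 replicate 1. *Mfsd9* and the antisense gene *Gm16894* were not called.

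**Figure D4:**
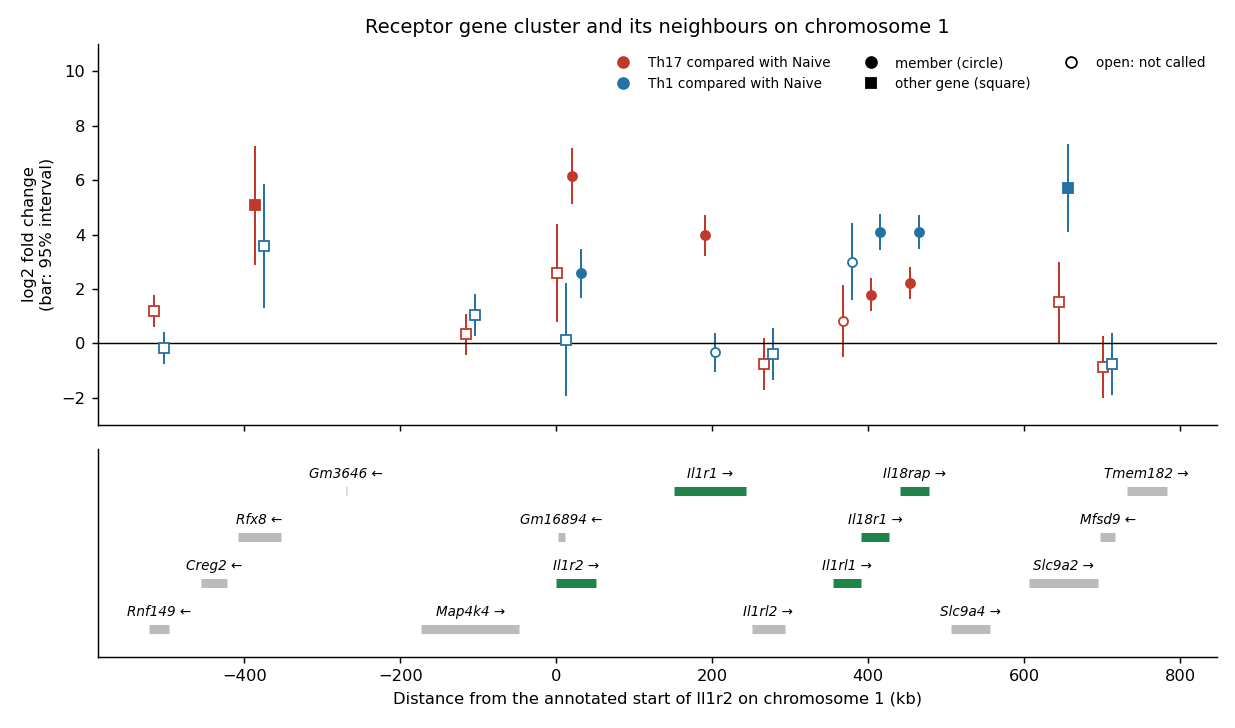
Log2 fold change with 95% confidence interval (top) of the tested genes on chromosome 1 against the distance of the gene's centre from the annotated start of *Il1r2* in kilobases, and the genes themselves with their strand (bottom, members in green). Points are shifted slightly to the left for Th17 and to the right for Th1 compared with Naive. The called members on the left have their larger value in Th17, those on the right in Th1, and *Il1rl2* between them is open in both comparisons.

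The ligands of these receptors were scarce in most libraries. Of 9 ligand and related genes in the files, 3 could be tested, of which 2 rose from Naive to Th17, 0 were called between Naive and Th1 and 1 was lower in Th1 than in Th17, against 4.01% of all tested genes called higher in Th17 than Naive and 2.83% called lower in Th1 than Th17. *Il1b*, which encodes IL-1β, was at 0.191 and 0.0495 CPM in Naive, 1.76 and 10.5 CPM in Th17 and 0.387 and 0.253 CPM in Th1. Th17 was above the other libraries, with a pooled ratio to Naive of 22.9 (95% counting interval 13.4 to 42.4, which covers counting error only). The fitted log2 fold change was 5.39 (95% confidence interval 3.20 to 7.58, edgeR adjusted p = 0.00639). The call was lost without Naive replicate 1 (adjusted p = 0.0183), Naive replicate 2 (0.0249) or Th17 replicate 2 (0.0583). Th1 compared with Th17 missed the threshold (adjusted p = 0.0152). *Il1f9*, which encodes IL-36γ, had 333 and 100 counts in Th17 and 0 counts in the other 4 libraries. Setting 3 counts per library as the floor, its lower Th17 library was at least 34.3-fold higher than Naive and 26.9-fold higher than Th1 (edgeR adjusted p = 0.000781 and 0.000944). With the replicate number as a block, DESeq2 called neither difference (DESeq2 adjusted p = 0.117 and 0.129). *Il1a* was at 0.153 and 3.28 CPM in Th17, a spread that came with no call. *Il18* had 1 to 26 counts in each library and *Il33* at most 13, so neither the ligand of the IL-18 receptor nor that of ST2 could be tested. *Il1b*, *Il1f9* and *Il1rn* are known products of myeloid cells, whose lists were highest in Th17 (above). The part of such cells was not tested.

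Below the receptors, most genes of the shared signalling route were not called. All 22 listed signalling genes were tested. From Naive, 1 (4.55%) rose in Th17 and 2 (9.09%) rose in Th1, and 0 fell in either. Of all tested genes, 4.01% and 4.64% were called higher in these comparisons, and 5.43% and 7.45% in either direction. Between the helper types, 1 was higher and 1 lower in Th1, together 9.09% against 5.53% of all tested genes. *Map3k8*, a kinase that links NF-κB activators to ERK, was at 6.82 and 8.86 CPM in Naive, 55.7 and 64.9 CPM in Th17 and 142 and 120 CPM in Th1. It rose by 2.95 ± 0.28 in Th17 (edgeR adjusted p = 0.000236) and by 4.06 ± 0.30 in Th1 (adjusted p = 4.69e-05). *Myd88*, the adaptor of the signalling receptors of the family, was at 81.0 and 81.6 CPM in Naive, 111 and 102 CPM in Th17 and 189 and 204 CPM in Th1. It rose by 1.28 ± 0.25 in Th1 (edgeR adjusted p = 0.00679), a call that was lost whichever of the 6 libraries was left out (adjusted p = 0.015 to 0.0332), and its difference of 0.39 in Th17 was not called (adjusted p = 0.285). Of the 4 IRAK kinase genes, which act next to MyD88, *Irak2* and *Irak3* were called between the helper types. *Irak3*, an inhibitory member, was at 4.90 and 3.66 CPM in Naive, 19.9 and 14.7 CPM in Th17 and 1.47 and 2.15 CPM in Th1, and was lower in Th1 than in Th17 by 3.28 (SE 0.43, edgeR adjusted p = 0.00128), a call lost without Th17 replicate 1 (0.0132). *Irak2* was at 20.1 and 18.5 CPM in Th17 and 45.6 and 60.8 CPM in Th1, higher in Th1 by 1.46 ± 0.29 (adjusted p = 0.00988), a call lost when any 1 of the 4 Th17 and Th1 libraries was left out (edgeR adjusted p = 0.0108 to 0.105) and with at least 10 counts in every library (0.0144). *Irak1* and *Irak4* were not called in any comparison.

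Of 8 listed inflammasome and caspase genes for ligand maturation, all tested, 2 (25%) rose in Th17 and 1 (12.5%) rose in Th1 compared with Naive, and 1 (12.5%) was lower in Th1 than in Th17. The shares of all tested genes called in these directions were 4.01%, 4.64% and 2.83%. *Casp4*, the caspase of the non-canonical inflammasome, was at 5.47 and 4.21 CPM in Naive, 22.7 and 19.5 CPM in Th17 and 30.1 and 34.9 CPM in Th1. It rose by 2.12 ± 0.32 in Th17 (edgeR adjusted p = 0.00234, but 0.0125 to 0.0192 without Naive replicate 2, Th17 replicate 1 or Th17 replicate 2) and by 2.74 ± 0.32 in Th1 (adjusted p = 0.000559). *Nlrp3*, an inflammasome sensor that myeloid cells express, was at 0.235 and 0.0990 CPM in Naive, 6.49 and 5.83 CPM in Th17 and 0.681 and 0.506 CPM in Th1, with a rise in Th17 of 5.03 ± 0.62 (edgeR adjusted p = 0.000846). Its difference between the helper types (adjusted p = 0.00438) was not called when any 1 of the 4 Th17 and Th1 libraries was left out (0.016 to 0.0303). Of the other receptors and the IL-18 binding protein, 5 genes were listed, 3 were tested and 0 were called. *Il1rapl1* and *Il1rapl2* had 0 counts in every library. *Sigirr*, an orphan receptor that dampens this pathway, was at 80.0 to 139 CPM in all 6 libraries. *Il18bp*, the soluble inhibitor of IL-18, was at 1.94 and 2.38 CPM in Naive, 2.48 and 1.81 CPM in Th17 and 6.22 and 5.82 CPM in Th1, with a log2 fold change of 1.49 in Th1 compared with Naive (edgeR adjusted p = 0.0472). Over the 36 tested genes of the 4 lists, 5 (13.9%) were called between Naive and Th17, 3 (8.33%) between Naive and Th1 and 4 (11.1%) between the helper types, against 5.43%, 7.45% and 5.53% of all tested genes. The median log2 fold changes were 0.34, 0.40 and 0.19, against -0.02, -0.02 and -0.03 over all genes.

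**Figure D5:**
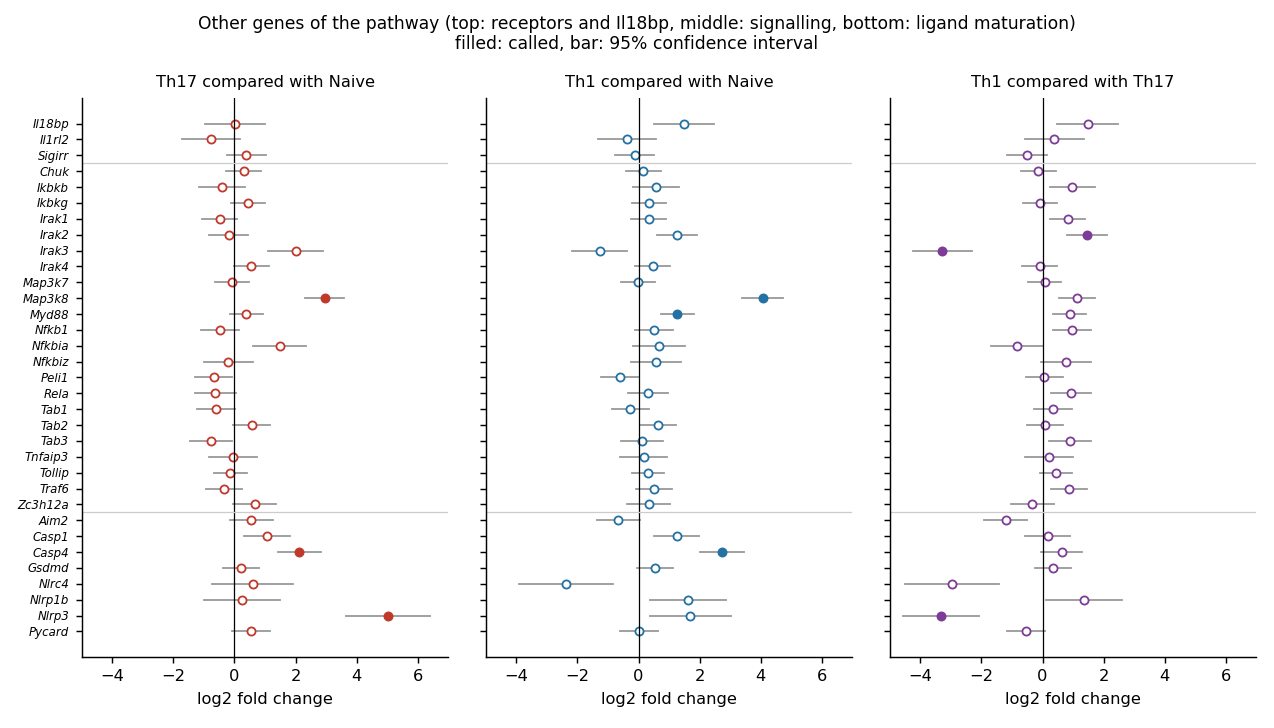
Log2 fold change with 95% confidence interval of the tested receptors outside the 7 genes and *Il18bp* (top), signalling genes (middle) and ligand maturation genes (bottom) in the 3 comparisons. Filled points passed the call. *Map3k8* and *Casp4* are filled in both comparisons with Naive, *Nlrp3* in Th17 and between the helper types, *Myd88* in Th1, and *Irak2* and *Irak3* between the helper types in opposite directions.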

How the data were processed

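Per the labels, polyadenylated RNA was reverse transcribed by Smart-seq2 and sequenced on an Illumina instrument. The authors aligned reads to mm10 with HISAT2 2.2.1, stated that duplicates were removed, and deposited whole-number counts per gene made with HTSeq 0.13.5. The strand setting is stated differently in the study's methods and its code, so overlapping genes such as *Il1r2* and *Gm16894* are uncertain. The counts were fitted as deposited with edgeR 4.0.16 in R 4.3.3: TMM scaling, filterByExpr by cell type, 1 quasi-likelihood model over all 6 libraries with a mean per cell type, Benjamini-Hochberg adjustment over 13607 genes. Standard errors are the absolute log2 fold change divided by the root of F. DESeq2 1.42.0, other scalings, filters and thresholds, the replicate number as a block, and leaving out each library were alternatives. Exon lengths came from GENCODE vM21, in which 23059 of 24223 symbols matched. Sequences came from RefSeq (GRCm38.p6). The fit was tested on simulated data. The members and gene lists were chosen with earlier results of these data known. Genes named were the 7 members, called genes of the pathway lists, tested neighbours, the 3 most alike genes and defining markers. *Il1a*, *Il18*, *Il33*, *Sigirr*, *Il18bp*, *Slc9a4*, *Il1rapl1* and *Il1rapl2*, *Irak1* and *Irak4*, and single marker genes beyond the first 3 of a list were named after their values were seen. The study calls the 2 libraries of a cell type independent biological replicates. The p-values rest on the spread between replicates, estimated jointly for the cell types and with information borrowed across genes.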

Additional observations from a re-analysis of the deposited data

Results flagged for a closer look

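The difference between the helper types was itself tested and called for 5 of the 7 genes, against 5.53% of all tested genes. Taking Th1 against Th17, log2 fold changes were -4.31 for *Il1r1* (edgeR adjusted p = 0.000139), -3.58 for *Il1r2* (0.000611), -5.65 for *Il1rn* (0.00246), 2.30 for *Il18r1* (0.000821) and 1.87 for *Il18rap* (0.0016). For *Il1r1* both Th17 libraries lay above, and both Th1 libraries below, every Naive library. The same order of libraries was seen for *Irak3*, whose log2 fold change between the helper types was -3.28 (adjusted p = 0.00128, lost without Th17 replicate 1). Compared with Naive, *Irak3* was called neither in Th17 (2.01, edgeR adjusted p = 0.0102) nor in Th1 (-1.28, adjusted p = 0.0614). *Il1r1* was not called in Th1 compared with Naive (-0.33, edgeR adjusted p = 0.542). Among the pathway genes and the neighbours on chromosome 1, those called between the helper types also included *Nlrp3* (-3.34, adjusted p = 0.00438), *Irak2* (1.46, adjusted p = 0.00988), *Slc9a2* (4.21, adjusted p = 0.00333) and *Rnf149* (-1.36, adjusted p = 0.00906). *Il1f9* was at least 26.9-fold higher in Th17 than in Th1, where it had 0 counts. The calls of *Irak2*, *Nlrp3* and *Rnf149* were lost when any 1 of the Th17 and Th1 libraries was left out. Those of *Il18r1*, *Il18rap*, *Il1rn* and *Slc9a2* were lost without some of these libraries (above).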

How the results depend on the processing

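Across the alternatives, 323 of the members' log2 fold changes kept their direction and their side of the threshold, 17 newly passed it, 13 no longer passed it and 1 reversed, *Il1rap* in Th1 compared with Th17, at 0.12 without Th1 replicate 1, with a range of -0.32 to 0.12 when 1 library was left out. *Il1rl1* took up all newly passing values, in the comparisons with Th1. The 2 libraries per cell type limit every call, and the shallower replicate 2 libraries limit genes near 3 counts, such as *Il1rn* in Naive and Th1. Fewer members were called between the helper types without either Th17 library, where 1 library of that type remained. The number called over all tested genes also moved when 1 library was left out. The log2 fold changes between the helper types then ranged from -4.53 to -4.04 for *Il1r1*, -3.75 to -3.42 for *Il1r2* and -6.81 to -4.69 for *Il1rn*. For *Il18r1* they ranged from 2.23 to 2.37, for *Il18rap* from 1.76 to 1.97 and for *Il1rl1* from 1.36 to 2.71. The replicate numbers went with depth, but the labels tie them to no animal or batch, and same-numbered libraries did not deviate together in every combination (correlation of replicate differences -0.23, 0.17 and 0.08), so they were not taken as pairs. With the replicate number as a block, edgeR called 5, 4 and 5 members and DESeq2 5, 4 and 6, *Il1rl1* in Th1 compared with Naive among them (2.91, adjusted p = 0.0033), and DESeq2 with this block called 5 pathway genes in Th1 compared with Naive. Pathway genes called in Th17 compared with Naive were 8 without a filter and 3 with at least 10 counts in every library or when testing against a fold change of 2, and 3 to 7 when 1 library was left out, with 3 without Naive replicate 2 or Th17 replicate 2. In Th1 compared with Naive they were 6 with DESeq2, 5 without a filter, 7 at an adjusted p under 0.05, and 2 with library size alone, with the 4 libraries alone, against a fold change of 2 or with any 1 library left out. Between the helper types they were 9 with DESeq2, 8 without a filter, 1 with at least 10 counts, 9 at an adjusted p under 0.05, 2 against a fold change of 2 and 2 to 5 with 1 library left out, with 2 when either Th17 or either Th1 library was missing. Neighbours called in Th17 compared with Naive were 2 with DESeq2, no filter or an adjusted p under 0.05, and 0 with library size alone, at least 10 counts, thinned counts or a fold change of 2, and 0 to 1 with 1 library left out. In Th1 compared with Naive they were 0 with at least 10 counts and 2 at an adjusted p under 0.05, and between the helper types 1 with at least 10 counts or a fold change of 2 and 0 to 2 with 1 library left out. The cause of these changes was not tested. Over all tested genes, 739, 1014 and 752 were called in the 3 comparisons, 1741, 1935 and 1829 with DESeq2, 2154, 2259 and 2232 without a filter, 369, 714 and 442 with at least 10 counts, 2063, 2164 and 2112 at an adjusted p under 0.05, 403, 511 and 349 against a fold change of 2, and 1537, 1797 and 1638 with DESeq2 and the block. Scaling by library size alone moved the median log2 fold change of all genes by -0.25 in Th1 compared with Naive and -0.21 in Th1 compared with Th17, and the share of calls that were higher from 62.2% to 52.4% and from 48.8% to 36.6%. No member changed direction under it.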
